A study of Mus musculus with 3 samples.

Results

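The C-type lectin receptors Clec4d, Clec4e, Clec4n, Clec5a, Clec7a, Clec2d and Clec12a were followed in RAW264.7 macrophages, a transformed mouse macrophage cell line. These 7 genes were taken by gene name from the 36870 gene names of the array, and all of their 11 probes, of 56605 in all, were read. RNA was measured on 1-colour Agilent mouse arrays in 3 conditions that all include LPS, a component of bacterial walls and the agonist of TLR4. Macrophages were stimulated with LPS alone for 3 h, or were treated with *L. plantarum* LOC1 or with *L. plantarum* LOC3 before the same 3 h of LPS. The lactobacilli, both isolated from fresh tea leaves, were present for 12 h according to the design text and for 24 h according to the methods, and LPS was used at 50 ng/mL according to the methods and at 100 ng/mL according to the results text. The comparison asks how each strain modulated the response to TLR4 activation. With 1 array per condition, neither an SD nor a p-value can be given for a difference between conditions, and unchallenged macrophages enter only through deposited ratios, their own array being not analysed here.

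C-type lectin receptors carry a lectin-like domain that binds sugars, lipids or proteins of microbes and damaged cells. Clec4n (Dectin-2), Clec4d (MCL) and Clec4e (Mincle) signal through the adaptor chain encoded by Fcer1g, Clec5a (MDL-1) through Tyrobp and Hcst, and Clec7a (Dectin-1) through a tyrosine motif of its own. The routes through Fcer1g, through Tyrobp and through the motif of Clec7a reach the kinase Syk, and from there the adaptor Card9. Clec12a works the other way, since its inhibitory motif recruits phosphatases such as the product of Ptpn6, while Clec2d is a surface ligand for inhibitory receptors of natural killer cells.

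All 9 macrophage markers examined, among them Adgre1, Cd14, Cd68 and Lyz2, were well above background on every array. So were 7 of the 19 markers of other cell types, namely Zbtb46, S100a8, Elane, Cd3e, Cd4, Col1a1 and Pdgfra. None of the 3 B cell markers was, though Ms4a1 was well above background on 2 arrays. The intensity of Csf1r, the receptor for the macrophage growth factor CSF1, was 77800 with LPS, 38940 with LOC1 + LPS and 44640 with LOC3 + LPS. Itgam, Lyz2 and Spi1, which encodes the factor PU.1, were also lower with both strains, Spi1 at 2641, 1699 and 1786 in that order. Adgre1, Cd68 and Mertk were higher with both, Adgre1 at 11370, 15570 and 13800. Cd14 and Ptprc were close to their LPS intensity. The part of these genes in the values below was not tested. Values are given as the scanner's background-corrected intensity, and on the log2 scale after subtraction of each array's 75th percentile, which was an intensity of 367 with LPS, 332 with LOC1 + LPS and 334 with LOC3 + LPS. A probe on which 1 array was not well above background gives only a bound, and an intensity of 1 probe is never set against that of another. From probes printed 10 times on every array, the median SD of a difference between single spots was 0.05 on the log2 scale for 260 bright probes. It was 0.28 to 0.33 for dim ones, of which there were only 9. That SD covers spot noise alone, not the spread between cultures. Scaling on the median in place of the 75th percentile would raise every difference from LPS by 0.19 with LOC1 and by 0.16 with LOC3, so smaller differences than these have no settled direction.

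Of the 11 probes, 2 cross a splice junction and therefore read spliced mRNA, and they are shown because both lay lower with the lactobacilli. The Clec5a probe bridges an intron of 2855 bases (mm9, chr6:40532266-40535180, minus strand) and is assigned to 1 RefSeq transcript, whereas the other 2 Clec5a probes are assigned to 2. The Clec7a probe bridges an intron of 1585 bases (mm9, chr6:129420986-129422630, minus strand). Their letters, read from the array files, are all in lower case since no part stands out.
Clec5a probe A_51_P398376: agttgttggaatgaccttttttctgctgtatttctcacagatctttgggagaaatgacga
Clec7a probe A_66_P135346: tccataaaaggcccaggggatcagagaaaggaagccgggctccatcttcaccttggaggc

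The stretch of 250 bases upstream of the start was available for 6 members, all but Clec4n, from RefSeq on GRCm38.p6. It is shown for Clec4e and Clec2d, which were listed as higher with LPS, and for Clec5a and Clec7a, which were lower with both strains. Clec12a, also listed as higher with LPS, is not shown. Clec2d was itself lower with both strains, so the genes shown do not form opposed groups. Capitals mark GAGGAA on either strand, the core letters bound by PU.1, the lineage factor of macrophages.
Clec4e, chr6:123289872-123290121, minus strand: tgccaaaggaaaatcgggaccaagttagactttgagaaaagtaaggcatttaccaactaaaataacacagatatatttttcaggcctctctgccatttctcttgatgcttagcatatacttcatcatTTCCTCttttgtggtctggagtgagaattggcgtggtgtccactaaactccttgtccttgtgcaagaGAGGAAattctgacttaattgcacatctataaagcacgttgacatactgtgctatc
Clec2d, chr6:129180365-129180614, plus strand: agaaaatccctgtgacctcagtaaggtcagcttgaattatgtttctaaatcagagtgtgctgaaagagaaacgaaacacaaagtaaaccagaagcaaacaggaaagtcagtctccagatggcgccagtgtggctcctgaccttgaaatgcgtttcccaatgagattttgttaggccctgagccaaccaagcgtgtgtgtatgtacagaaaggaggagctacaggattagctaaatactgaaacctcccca
Clec5a, chr6:40585806-40586055, minus strand: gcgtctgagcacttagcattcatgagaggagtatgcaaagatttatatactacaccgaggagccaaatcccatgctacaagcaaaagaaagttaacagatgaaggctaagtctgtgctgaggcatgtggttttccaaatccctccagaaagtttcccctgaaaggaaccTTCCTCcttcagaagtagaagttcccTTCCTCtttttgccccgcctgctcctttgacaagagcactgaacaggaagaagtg
Clec7a, chr6:129472786-129473035, minus strand: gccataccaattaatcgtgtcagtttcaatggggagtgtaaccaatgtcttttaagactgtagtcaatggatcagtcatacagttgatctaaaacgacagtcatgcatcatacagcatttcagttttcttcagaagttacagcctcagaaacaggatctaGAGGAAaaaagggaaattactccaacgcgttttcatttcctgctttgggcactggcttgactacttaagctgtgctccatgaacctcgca

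The PU.1 letters were found upstream of 5 of the 6 members (Clec12a, Clec4d, Clec4e, Clec5a and Clec7a), beside 23.3% of the 32851 promoters in the table. They lay 56 and 123 bases before the start of Clec4e, 55 and 81 before that of Clec5a, 90 before that of Clec7a, 47 and 61 before that of Clec12a and 240 before that of Clec4d. The letters AANNGAAA, read by IRF factors, stood upstream of 4 members (Clec2d, Clec4e, Clec5a and Clec7a) and of 21.3% of all promoters, the C/EBP letters TTGCNNAA upstream of Clec12a and Clec4e and of 9.56%, and the AP-1 letters TGANTCA upstream of Clec12a alone among the members and of 6.75%. Neither the NF-kB consensus, held by 7.25% of all promoters, nor the STAT letters TTCNNNGAA, held by 7.02%, was found in these 6 windows. Both strands were searched, and the 2 IRF matches of Clec2d overlapped each other. These are matches of letters and not shown to be bound.

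**Figure D1:**
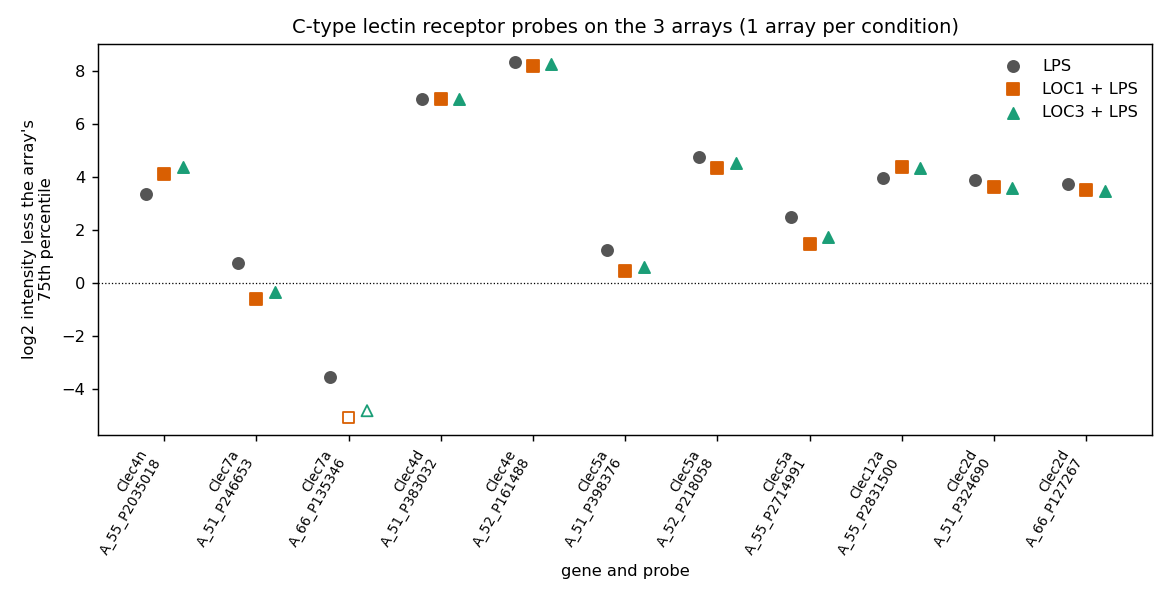
Each probe of the 7 genes (x axis) on the 3 arrays, on the log2 scale relative to each array's 75th percentile (y axis), with 1 point per array and open points where the signal was not well above background. The points of Clec7a and Clec5a lie higher with LPS alone than with either strain, and those of Clec4n and Clec12a lie lower with LPS alone.

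By its brightest probe, 1 of the 7 members was lower past 2-fold with LOC1 + LPS than with LPS, Clec7a, and none was higher, beside 3.56% of 20042 genes lower and 2.72% higher. With LOC3 + LPS, Clec7a was again lower past 2-fold and Clec4n was higher, beside 2.96% of 19821 genes lower and 3.25% higher. A list of 7 genes cannot show a share that small, so these counts are descriptions of single genes. Both comparisons use the same LPS array. In bulk RNA, fewer cells with a transcript and less of it per cell cannot be told apart.

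Clec7a encodes Dectin-1, the receptor for fungal beta-glucans. Its main probe (A_51_P246653, chr6:129411739-129411798 on mm9) gave an intensity of 622 with LPS, 219 with LOC1 + LPS and 269 with LOC3 + LPS. The LPS array was thus the high one. On the log2 scale the difference from LPS was −1.36 with LOC1 (2.57-fold) and −1.07 with LOC3 (2.10-fold), each more than 3 times the SD between spots of dim probes, which was 0.29 and 0.33. The junction probe was dim, with intensities of 32.06, 10.01 and 11.95 in the same order, and was well above background with LPS alone. For this probe LOC1 + LPS therefore lay at least 1.997-fold below LPS, and LOC3 + LPS at least 1.469-fold, bounds that shrank to 1.183-fold and 1.149-fold with normexp. The fall of Clec7a with LOC1 stayed past 2-fold in all 9 alternative settings that gave a value, from −1.44 to −1.17. With LOC3 it did so in 6 of 9, and was −0.91 with median scaling, −0.93 with normexp background correction and −0.81 as the mean of both probes.

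Clec4n encodes Dectin-2, which binds mannans of fungal walls. The intensity of its single probe (A_55_P2035018, chr6:123196969-123197028 on mm9) was 3802 with LPS, 5827 with LOC1 + LPS and 7063 with LOC3 + LPS. Both lactobacilli arrays lay above the LPS array. The difference on the log2 scale was 0.76 with LOC1 and 1.03 with LOC3 (2.04-fold), against an SD between spots of 0.05. The LOC3 difference stood close to the threshold, ranging from 0.93 with quantile normalization to 1.19 with median scaling, and it was past 2-fold in 6 of 9 alternatives. LOC3 + LPS exceeded LOC1 + LPS by 0.27.

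Next to Clec4n on the chromosome stand Clec4d and Clec4e, whose products MCL and Mincle bind mycobacterial glycolipids. Neither gene came near 2-fold with either strain. Clec4d (A_51_P383032, chr6:123224788-123224847 on mm9) had intensities of 44776 with LPS, 40632 with LOC1 + LPS and 41766 with LOC3 + LPS, which after scaling gave differences of 0.01 and 0.04. Both are smaller than the shift between scalings, and the sign turned in 4 of 9 alternatives with LOC1 and in 3 of 9 with LOC3. Clec4e (A_52_P161488, chr6:123232878-123232937 on mm9) had intensities of 120117, 96016 and 102940 in that order, and differences of −0.18 and −0.08. With median scaling these became 0.01 and 0.08. The 3 neighbouring genes of this cluster therefore differed by 0.76, 0.01 and −0.18 with LOC1, and by 1.03, 0.04 and −0.08 with LOC3.

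Clec5a encodes MDL-1, a myeloid receptor of pro-inflammatory signalling, and all of its 3 probes lay lower with the lactobacilli by this scaling. The junction probe had intensities of 875 with LPS, 452 with LOC1 + LPS and 511 with LOC3 + LPS, or differences of −0.81 and −0.64. A probe in the same gene (A_55_P2714991, chr6:40527854-40527913 on mm9) gave 2080, 922 and 1130, with differences of −1.03 (2.04-fold) and −0.74. The brightest (A_52_P218058, chr6:40527017-40527076 on mm9) gave 9865, 6829 and 7761, with smaller differences of −0.39 and −0.21. Since the brightest probe stands for a gene here, Clec5a was not counted as past 2-fold. The spread among its probes, from −1.03 to −0.39 with LOC1, was wider than the SD between spots, so the size of the change depends on the probe. Under median scaling the brightest probe kept its sign, at −0.20 with LOC1 and −0.05 with LOC3, the latter no larger than that SD.

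Clec12a, the inhibitory receptor MICL, differed in the other direction. Its probe (A_55_P2831500, chr6:129314367-129314426 on mm9) gave an intensity of 5801 with LPS, 6863 with LOC1 + LPS and 6810 with LOC3 + LPS. It exceeded LPS by 0.39 with LOC1 and by 0.37 with LOC3, less than 2-fold and positive in all 10 alternatives, where it ranged from 0.30 to 0.58 and from 0.26 to 0.53.

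Clec2d, the ligand also known as Clr-b, was read by 2 probes that share 20 bases and so are not independent. The first (A_51_P324690, chr6:129136338-129136397 on mm9) had intensities of 5412 with LPS, 4077 with LOC1 + LPS and 4051 with LOC3 + LPS, and the second (A_66_P127267, chr6:129136298-129136357 on mm9) had 4951, 3792 and 3686. Both gave close to the same values, with differences of −0.26 and −0.24 for LOC1 and of −0.28 and −0.29 for LOC3. Clec2d stayed below LPS in all 9 alternatives, though by as little as −0.08 with LOC1 and −0.12 with LOC3 under median scaling.

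**Figure D2:**
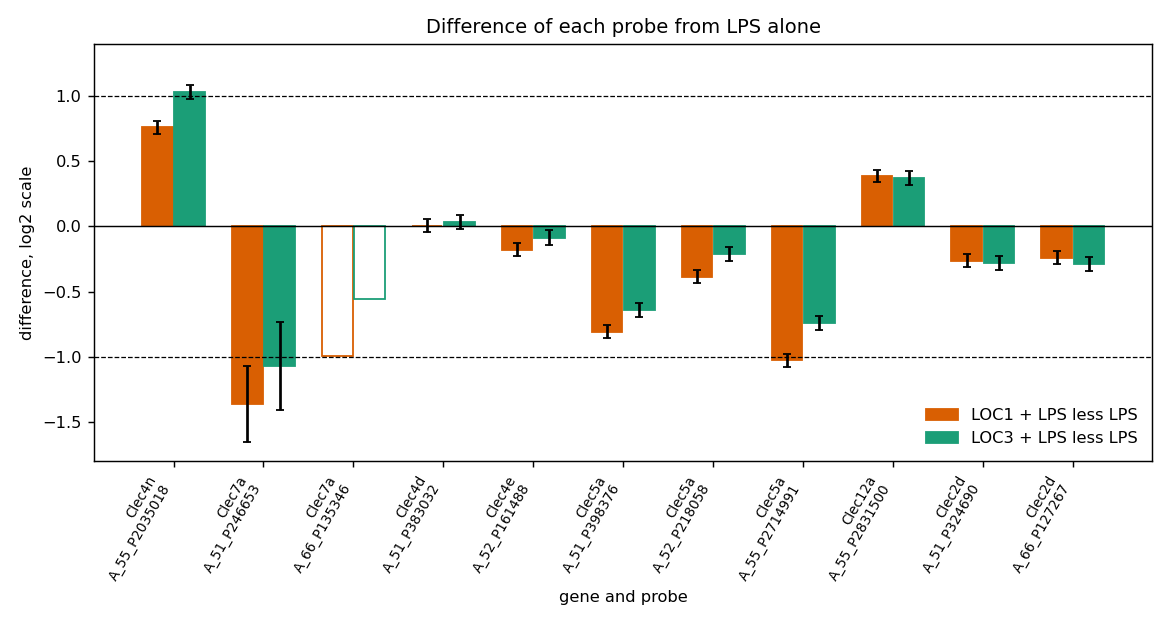
Difference from LPS on the log2 scale (y axis) for each probe (x axis), LOC1 + LPS in orange and LOC3 + LPS in green. Error bars are the SD between single spots of bright or dim probes, open bars are bounds, and dashed lines mark 2-fold, which Clec7a passed with both strains, Clec4n with LOC3 and 1 Clec5a probe with LOC1.

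Between the strains, none of the 7 members differed by 2-fold, beside 2.72% of 19414 genes. The differences of LOC1 + LPS from LOC3 + LPS ran from −0.29 for Clec7a to 0.02 for Clec12a, with a median of −0.09, and −0.01 over all genes. For Clec7a that difference equals about 1 SD between spots of dim probes, which was 0.28. For Clec4n, at −0.27, it was over 5 times the SD of 0.05 for bright probes. Over the 7 members the median difference from LPS was −0.18 with LOC1 and −0.08 with LOC3, and over all genes 0.03 and 0.05.

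The change with LPS itself can be read only from the deposited log2 ratios to unchallenged macrophages, which leave values under 2-fold blank. A probe absent from them may still have reached 2-fold. The second probe of the kinase gene Fgr, for example, is absent although LOC1 + LPS differed from LPS by −2.63. A gene counts here where any of its probes is listed. Of the 7 members, 3 were listed as higher with LPS, Clec2d, Clec4e and Clec12a, and none as lower, beside 14.5% of 19337 genes higher and 11.0% lower. Clec2d had the widest ratio of these, 3.61 with LPS (12.2-fold), 3.37 with LOC1 + LPS and 3.32 with LOC3 + LPS, from the dimmer of its 2 probes, since the brighter one is not in the table. Clec4e, a known target of inflammatory stimuli in macrophages, had 2.08 (4.24-fold), 1.91 and 2.002. Clec12a had 1.17 (2.26-fold), 1.56 and 1.55, so its ratio was higher with the lactobacilli than with LPS alone.

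Clec7a was listed for LOC1 + LPS only, at −1.21 by its main probe. The junction probe, also listed there, was not well above background on that array and is not read as an exact ratio. The value left blank for LPS, rebuilt from the intensities, was 0.15 for the main probe, and that for LOC3 + LPS was −0.92. LPS alone thus left Clec7a within 2-fold of unchallenged macrophages, and by the main probe the lactobacilli arrays lay below them. No ratio was listed for Clec4d, Clec4n and Clec5a, and none can be rebuilt for them, so their change with LPS is not analysed here.

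**Figure D3:**
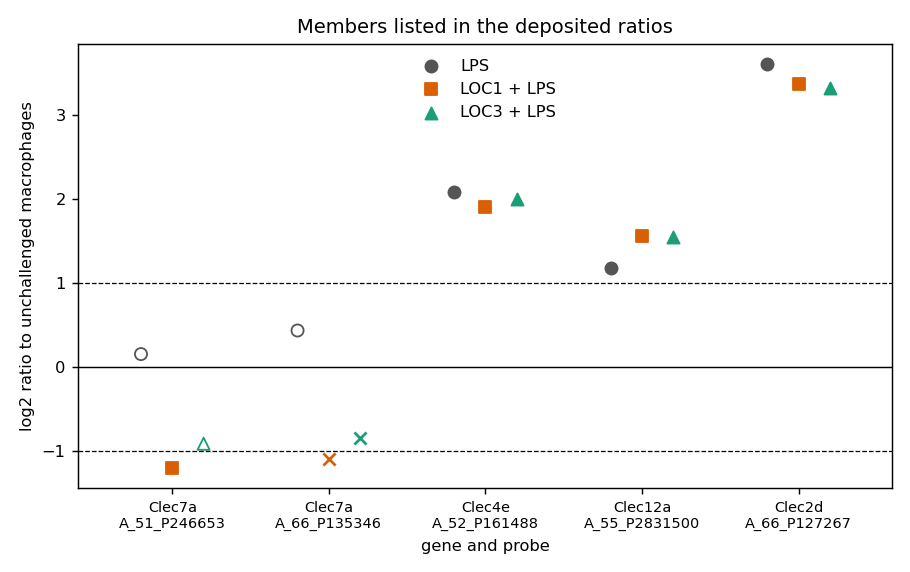
Log2 ratio to unchallenged macrophages (y axis) for the 5 member probes in the deposited table (x axis), with 1 point per array. Filled points are deposited values, open points were rebuilt from intensities because they lay under 2-fold, and crosses mark signals not well above background, whose ratio is not exact. Only the Clec7a points of the lactobacilli arrays fall below 0.

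For the members past 2-fold, the genes with the nearest pair of differences were sought among 12056 genes well above background on all arrays. Over these 2 differences, Syne3 (−1.36 and −1.08), Msmo1 (−1.35 and −1.08) and Ifi27 (−1.39 and −1.09) lay nearest to Clec7a, at distances of 0.01 to 0.03. Adgrb1 (0.80 and 1.02), Bcl9 (0.786 and 1.002) and Snora34 (0.791 and 0.998) lay nearest to Clec4n, at 0.04 each. These distances are smaller than the noise between spots, so the order of the genes is not resolved.

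The adaptor genes Fcer1g and Tyrobp were near their LPS level. Fcer1g reached an intensity of 163887 with LPS, 145508 with LOC1 + LPS and 150987 with LOC3 + LPS, or differences of −0.03 and 0.02. Tyrobp had 38429, 30965 and 33731, or −0.17 and −0.05, all within the shift between scalings. Card9 was dim, and its 2 probes disagreed, with differences of 0.57 and 0.49 for one and of −0.17 and 0.13 for the other. The phosphatase gene Ptpn6 had differences of −0.06 and −0.05 by its brightest probe.

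Syk, the kinase on which the activating receptors converge, was higher past 2-fold with both strains by its brightest probe. The intensity of that probe was 3116 with LPS, 7214 with LOC1 + LPS and 6353 with LOC3 + LPS. The differences were 1.36 (2.56-fold) and 1.17 (2.24-fold). A further probe gave 1.28 and 1.53, another only 0.63 and 0.08, and the last, not well above background with LPS, at least 2.59-fold and at least 1.61-fold. As the mean of its detected probes, Syk was past 2-fold with LOC1, at 1.16, but not with LOC3, at 0.87.

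The Src-family kinase Fgr, which acts upstream of Syk, was lower. Fgr reached an intensity of 212 with LPS, 39.3 with LOC1 + LPS and 52.8 with LOC3 + LPS, or differences of −2.29 (4.88-fold) and −1.87 (3.66-fold), and its other probe gave −2.63 and −1.43. With normexp the differences were −1.26 (2.39-fold) and −1.13 (2.19-fold). Fgr was listed as higher with LPS than in unchallenged macrophages, with a log2 ratio of 2.35, by 1 of its 2 probes, the other being absent from the ratios.

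Of the 24 signalling genes fixed as a list, 1 was higher past 2-fold with either strain, Syk, while 2 were lower with LOC1 and 1 with LOC3, Fgr being lower with both. Over all genes, 2.72% were higher and 3.56% lower with LOC1, and 3.25% and 2.96% with LOC3. The median difference of the list was −0.08 with LOC1 and 0.03 with LOC3, against 0.03 and 0.05 over all genes. In the deposited ratios to unchallenged macrophages, 5 of the 24 were listed as higher with LPS, among them Fgr, Lyn, Malt1 and Src, and 3 as lower (Inpp5d, Trim62 and Vav3), beside 14.5% of all genes higher and 11.0% lower. Lyn, Malt1 and Src by their brightest probes, and Inpp5d, Trim62 and Vav3, stayed within 2-fold of LPS alone with either strain. Malt1 was listed by dimmer probes, its brightest probe being absent from the ratios.

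**Figure D4:**
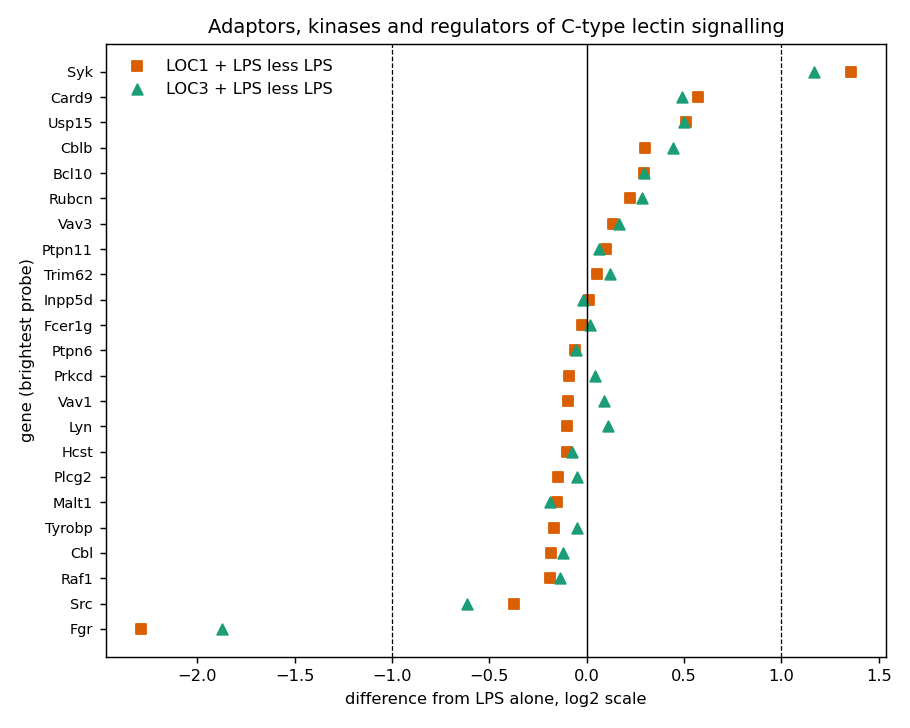
Difference from LPS on the log2 scale (x axis) for the brightest probe of the signalling genes reported (y axis), with dashed lines at 2-fold. Syk lies past 2-fold on the higher side with both strains, and Fgr on the lower side with both.

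Among 43 other C-type lectin genes, 24 could be compared for LOC1 and 25 for LOC3, the rest not being well above background on either array of the pair. Cd69, the early activation antigen and the gene next to Clec2d, was higher past 2-fold with both strains. Its brightest probe gave an intensity of 1336 with LPS, 2991 with LOC1 + LPS and 3354 with LOC3 + LPS, or differences of 1.31 (2.48-fold) and 1.47 (2.76-fold), but its second probe gave 0.00 and −0.03, and the mean of both, 0.66 and 0.72, was under 2-fold. Against unchallenged macrophages, Cd69 was at least 81.9-fold higher with LPS by its brightest probe and at least 11.2-fold by the second. Clec2d beside it differed by −0.26 and −0.28 from LPS.

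Further genes past 2-fold were Mrc1 and Cd209f with both strains, Cd93 with LOC1 and Cd209b with LOC3. Mrc1, the macrophage mannose receptor, reached an intensity of 53.3 under LPS alone, while neither lactobacilli array had it well above background. The fall was at least 3.32-fold for LOC1 and at least 2.37-fold for LOC3. Cd209f reached 50.6 under LPS alone and lay at least 3.15-fold and at least 2.32-fold lower. With normexp both genes were no longer past 2-fold with either strain, the bounds being at least 1.39-fold and 1.20-fold for Mrc1, and at least 1.438-fold and 1.397-fold for Cd209f. Cd93, a receptor of efferocytosis and adhesion, had 491 with LPS, 168 with LOC1 + LPS and 332 with LOC3 + LPS, or differences of −1.40 (2.64-fold) and −0.43. Cd209b was well above background with LOC3 + LPS alone, at least 6.78-fold higher than with LPS, by 1 of its 2 probes, or at least 2.31-fold with normexp.

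In all, 1 of 24 other lectin genes was higher and 3 lower past 2-fold with LOC1, and 2 of 25 were higher and 2 lower with LOC3, where the shares over all genes were 2.72% and 3.56% with LOC1, and 3.25% and 2.96% with LOC3. The median difference was −0.43 with LOC1 and −0.23 with LOC3, below the medians of the 7 members at −0.18 and −0.08. In the deposited ratios, 4 of the 23 genes well above background with LPS were listed as higher (Cd69, Clec1b, Clec4a1 and Cd209a) and 1 as lower, Thbd, beside 14.5% and 11.0% of all genes. Of these, Clec1b was at least 3.35-fold and Cd209a at least 1.60-fold higher, since the unchallenged signal was under the lowest one well above background. Clec4a1, in the cluster of Clec4n, reached an intensity of 39133 with LPS and differences of 0.22 with LOC1 and 0.42 with LOC3.

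**Figure D5:**
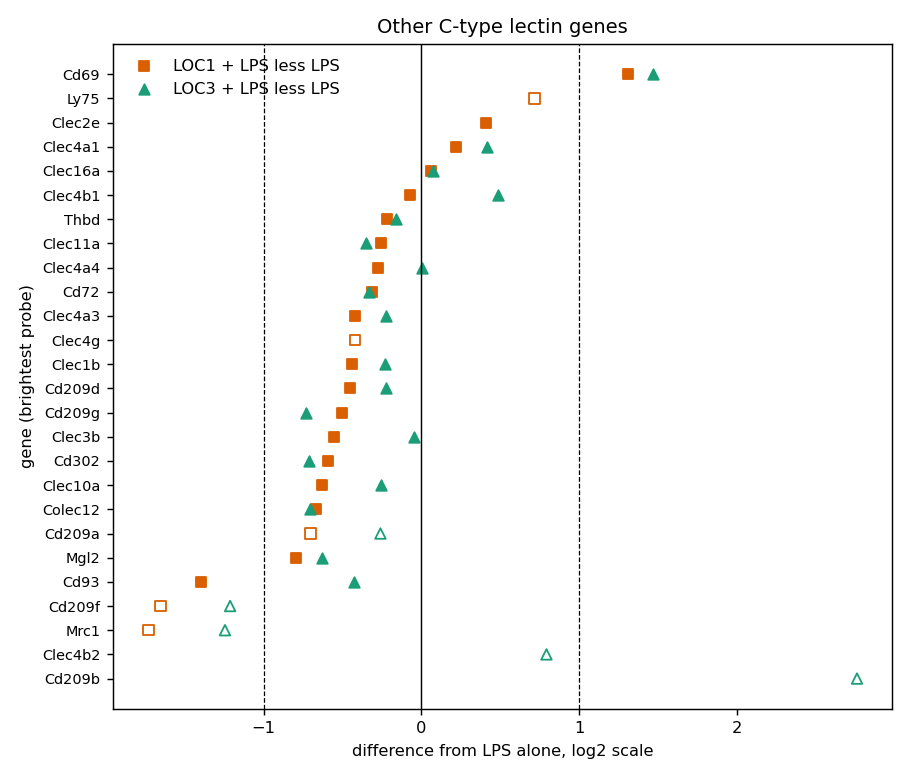
Difference from LPS on the log2 scale (x axis) for the brightest probe of other C-type lectin genes (y axis), with dashed lines at 2-fold and open points for bounds. Cd69 lies past 2-fold on the higher side with both strains and Mrc1 and Cd209f on the lower side.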

How the data were processed

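RNA was labelled with Cy3 and hybridised to SurePrint mouse arrays, 1 array per condition. The deposited intensity of each spot was background-corrected by the authors with Feature Extraction, version 12.0.3.1 in the file headers, with no scaling between arrays. The deposited log2 ratios, made by the authors in GeneSpring, hold 13135 probes, leave values under 2-fold blank and lack some probes past 2-fold. Here, control spots and outlier spots (118 to 135 per array) were left out, spots of a probe were averaged and log2 intensity less the 75th percentile over probes was compared. These differences matched those of the deposited ratios to a median of 0.0008 for LOC1 and 0.0031 for LOC3. Well above background were 47.8% to 51.9% of probes. A dimmer signal was raised to the lowest one well above background, 14.5 to 19.8, which gives a bound. A gene entered a comparison where a probe was well above background on at least 1 of its 2 arrays, and its brightest probe stood for it. For LPS against unchallenged macrophages, any listed probe counted. No spot was saturated, and having so few arrays limits the precision. The genes named were all members, list genes past 2-fold, 5 adaptors and enzymes of the pathway, and the 3 genes nearest in pattern to a member past 2-fold. Members and lists were chosen with earlier results of these data known. The methods' comparison of groups needs more than 1 array per condition and was not run. Steps were tested on simulated data. Positions are mm9 from the array files, and promoters are RefSeq on GRCm38.p6. Python 3.11.15, numpy 2.4.6, pandas 2.3.3, matplotlib 3.10.9, R 4.3.3 and limma 3.58.1 (normexp with an offset of 50) were used. The alternatives were median scaling, the 75th percentile over detected probes, quantile normalization, normexp, the mean of detected probes, detection on both arrays, no filter, outlier spots kept, a 3-fold threshold, the deposited ratios and, chosen after seeing the data, the 75th percentile over spots. The values of 1 gene of the signalling list are not reported here, although it is counted in that list.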

Additional observations from a re-analysis of the deposited data

How the results depend on the processing

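No paired analysis was possible because each condition has 1 array, and no replicate could be left out. Of 80 recomputed counts of genes past 2-fold, 56 stayed within 1.5 times the value given. For LOC1, the count of members fell from 1 to 0 at 3-fold and in the deposited ratios. There, the brightest probe of 2 of the 7 is listed in both columns, and Clec2d is listed by its dimmer probe alone. For LOC3 it fell from 2 to 1 with median scaling, normexp and the mean of detected probes, where Clec4n remained, and to 1 with the 75th percentile over detected probes, quantile normalization and the 75th percentile over spots, where Clec7a remained, and to 0 at 3-fold and in the deposited ratios. The count of signalling genes was 1 at 3-fold with either strain, and in the deposited ratios 1 with LOC1 and 0 with LOC3. Other lectin genes past 2-fold, 4 with each strain, became 2 with normexp, where Mrc1 and Cd209f were lost with both strains, 8 and 7 with no filter, 2 and 1 with detection on both arrays, at 3-fold and in the deposited ratios, in each case LOC1 first. Over all genes, 546 were higher and 713 lower with LOC1, and 645 and 586 with LOC3, which became 894 and 475, and 906 and 384, with median scaling, 631 and 620, and 716 and 518, with quantile normalization, 457 and 856, and 559 and 720, with the 75th percentile over detected probes, 224 and 202, and 274 and 148, with normexp, 371 and 465, and 334 and 379, with detection on both arrays, 1540 and 2284, and 1776 and 1985, with no filter, and 196 and 219, and 268 and 140, at 3-fold. The cause of these changes was not tested, beyond the fewer genes that a stricter filter or threshold leaves. Signal over background limits Mrc1, Cd209f and the second Clec7a probe to bounds.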

Other observations

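Probes of 1 gene disagreed in several of the signalling and lectin genes, which were picked here after their values were seen. Usp15, a deubiquitinase of the Card9 route, was 0.51 and 0.50 above LPS on the log2 scale with LOC1 and LOC3 by its brightest probe, whose intensity was 2866 with LPS. Another 2 probes, at 616 and 1096 with LPS, gave 0.44 and 0.46 with LOC1 and 0.41 and 0.35 with LOC3. By 3 of its dimmer probes, with LPS intensities of 90.7, 117 and 101, of which the first and the last share 52 bases and are not independent, it was lower past 2-fold, by −1.05, −1.03 and −1.14 with LOC1 and by −1.21, −1.25 and −1.57 with LOC3. Lyn, a Src-family kinase, differed by −0.10 and 0.11 in its bright probe (44535 with LPS) and by −1.26 and −1.17 in its dim one (154 with LPS). Src gave −0.37 and −0.61 by its brighter probe and −2.26 with LOC1 by the other, which was at least 4.24-fold lower with LOC3.

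Mgl2, a galactose-binding lectin of macrophages, is printed as 10 spots on each array. The mean intensity was 18044 ± 283 (SD over 9 spots) with LPS, 9418 ± 255 (SD over 10 spots) with LOC1 + LPS and 10585 ± 287 (SD over 10 spots) with LOC3 + LPS, or differences of −0.79 and −0.63. Spots of an array are no replicates of a condition. Its second probe gave −1.99 and −1.63. The related Clec10a differed by −0.63 and −0.26 in its brightest probe and by −0.70 and −0.59 in the other. The scavenger lectin Colec12, at an intensity of 11391 with LPS, differed by −0.67 and −0.71, and Cd302 by −0.59 and −0.71. The cause of the disagreement between probes was not tested.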
